A study of Mus musculus with 16 samples.

Results

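A set of 5405 promoter regions, assigned to 4883 genes, carried histone H3 acetylated at lysine 27 (H3K27Ac) in adult heart muscle cells whatever the genotype and whether or not the mice had swum. These regions were chosen from the 15757 H3K27Ac peaks of the Des+/+ basal list. A peak was kept when it lay within 1000 bp of an annotated transcription start, was narrower than 2500 bp, had an input height under 10 reads and overlapped by at least 1 bp a peak in each of the other H3K27Ac lists. The limits did not apply to its partners. In Des+/+ swim, Des-/- basal and Des-/- swim, input was 10 reads or more at 5, 3 and 817 partners. Width was 2500 bp or more at 55, 269 and 76. Of the Des+/+ basal peaks, 9976 met the limits on distance, width and input, and 54.2% of those were matched in every other list. The set was therefore selected on measured values, since each member had to reach the lists' lowest height of 15 reads in 4 libraries.

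The cells were cardiomyocytes freed from the heart by perfusion with enzymes, from mice aged 3 months that carried desmin (Des+/+, the WT labels) or had lost it throughout the body by gene deletion (Des-/-, the Null labels). Hearts were taken either without exercise (basal) or after swimming exercise (swim). Desmin is the intermediate filament protein that ties the contractile apparatus of muscle to its membranes and nucleus. Each of the 4 groups was 1 library made from chromatin pooled over several mice, so no spread between replicates exists, no test was possible, and every ratio below compares 1 library with another. All counting intervals are 95% intervals that treat reads as independent and cover counting error only. They do not allow for the choice of a member by its values.

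H3K27Ac is laid down by the acetyltransferases p300 and CBP on nucleosomes beside active promoters and enhancers, and it is widely read as a mark of genes in use. Narrow acetylated promoters with many CpG dinucleotides are typical of housekeeping genes, which serve energy supply, protein synthesis and protein quality control in most cells. Genes that define a cell type more often carry acetylation over wide domains and at distal enhancers, and their promoters are often poor in CpG.

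The 5405 regions were assigned to 4883 genes, of which 95% were protein-coding in the RefSeq gene table, 3.62% made long noncoding RNAs and 34 were microRNA genes. More than 1 member belonged to 487 genes. In most cases, 4736 members, the peak overlapped the annotated start itself. Promoters of the highest members and of some characteristic gene groups are shown first, because the gene groups described below differ in these letters. Each line gives the 250 bases before the RefSeq start (GRCm38.p6, the same build as mm10), 5′ to 3′ on the gene's own strand, and capitals mark any of the 12 short motifs searched. Eif1 (chr11:100319699-100319948, plus strand) and Atp6v0c (chr17:24169451-24169700, minus strand) had the highest acetylation of the set, Nr1d2 (chr14:18239107-18239356, minus strand) the highest among circadian genes, Rps18 (chr17:33955666-33955915, minus strand) held 5 ETS sites, and Hspb1 (chr5:135887669-135887918, plus strand) held 2 heat shock pairs.
Eif1: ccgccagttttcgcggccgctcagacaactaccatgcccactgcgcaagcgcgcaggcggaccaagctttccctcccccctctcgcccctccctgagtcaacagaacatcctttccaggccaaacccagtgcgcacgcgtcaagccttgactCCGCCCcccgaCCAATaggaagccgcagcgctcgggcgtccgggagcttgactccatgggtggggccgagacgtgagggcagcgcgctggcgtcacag
Atp6v0c: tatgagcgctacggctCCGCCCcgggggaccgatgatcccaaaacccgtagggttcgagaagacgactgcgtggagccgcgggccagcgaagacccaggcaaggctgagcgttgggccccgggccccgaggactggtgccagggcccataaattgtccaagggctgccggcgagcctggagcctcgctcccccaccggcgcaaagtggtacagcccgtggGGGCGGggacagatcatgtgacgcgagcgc
Nr1d2: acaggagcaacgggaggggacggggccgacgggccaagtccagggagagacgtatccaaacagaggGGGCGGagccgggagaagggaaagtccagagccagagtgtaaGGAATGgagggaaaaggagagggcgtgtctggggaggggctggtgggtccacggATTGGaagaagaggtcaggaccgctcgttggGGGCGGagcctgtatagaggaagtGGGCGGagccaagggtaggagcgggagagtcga
Rps18: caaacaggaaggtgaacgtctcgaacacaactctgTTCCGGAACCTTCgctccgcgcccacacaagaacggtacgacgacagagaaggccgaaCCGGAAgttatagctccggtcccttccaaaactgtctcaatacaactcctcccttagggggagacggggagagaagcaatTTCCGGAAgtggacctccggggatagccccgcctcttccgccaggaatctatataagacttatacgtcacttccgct
Hspb1: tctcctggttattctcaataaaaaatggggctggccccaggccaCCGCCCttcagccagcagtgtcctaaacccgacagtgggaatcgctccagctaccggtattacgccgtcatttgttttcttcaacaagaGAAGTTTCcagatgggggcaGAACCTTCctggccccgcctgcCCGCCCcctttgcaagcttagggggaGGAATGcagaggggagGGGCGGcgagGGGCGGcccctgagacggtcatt

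The motifs were searched on both strands of windows from 250 bases before to 50 after the start named in the peak annotation, read from the genome. They were the SP1 box GGGCGG, the ETS site CCGGAA, the NRF1 core GCATGCGC, the CCAAT box, the E-box CACGTG, the cyclic AMP response element (CRE) TGACGTCA, the YY1 site AAGATGGCG, the TATA box TATAAA, the heat shock pair GAANNTTC, the M-CAT site CATTCC, and the MEF2 and SRF (CArG) sites. A match is only a run of letters and does not show that a factor was bound. Overlap between motifs was allowed, so each stretch TTCCGGAA in Rps18 counted as an ETS site on each strand.

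Members' promoters were rich in CpG. The 5220 distinct windows of the members held a median of 24 CpG dinucleotides per 300 bases, against 21 in the 4370 windows of promoter peaks that met the same limits but lacked a partner in 1 or more lists, and 11 around the 21922 protein-coding starts of GENCODE vM21. The SP1 box stood in 68.3% of members' windows (interval 67% to 69.5%), in 63.4% of the other narrow promoter peaks and in 43% of all protein-coding starts. The ETS site stood in 31.2%, 26.8% and 17.5% of the same windows. Among rarer motifs, YY1 was found in 4.18% of members' windows and 1.69% of all starts, and the CRE in 4.23% and 2.43%. The order was the opposite for the TATA box, at 6.07% of members' windows and 12.6% of all starts. MEF2 and SRF sites, which are known from muscle genes, stood in 1.72% and 1.3% of members' windows, no more often than around all starts (2.85% and 1.48%).

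**Figure D1:**
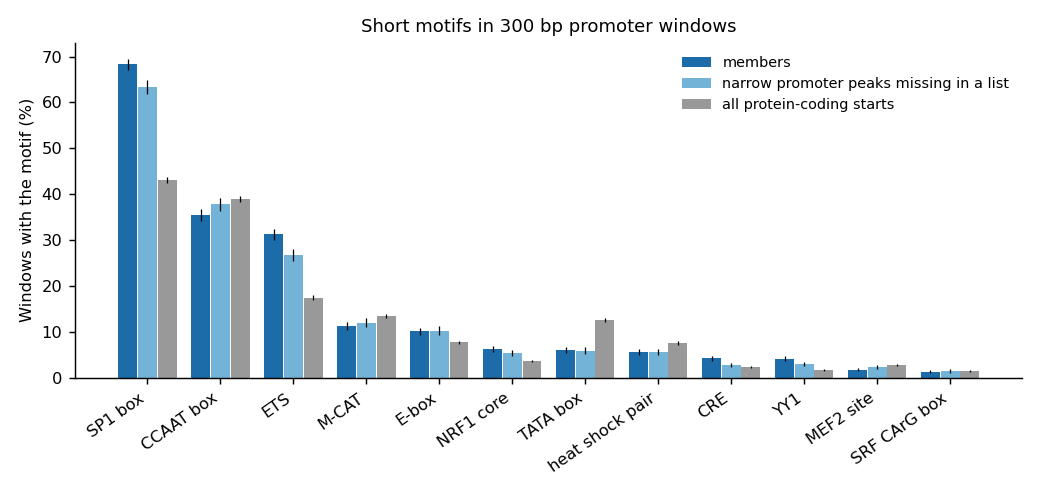
Share of 300-base promoter windows that hold each motif (percent, bars with 95% Wilson intervals) in members, in promoter peaks within the same limits that were missing from 1 or more lists, and around all protein-coding starts. The SP1 and ETS bars of the members stand above those of all starts (68.3% and 31.2% against 43% and 17.5%), and the TATA bar stands below (6.07% against 12.6%).

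Gene groups within the set differed in these letters. ETS sites stood at 29 of 55 cytosolic ribosomal protein genes and 15 of 24 mitochondrial ribosomal protein genes, against 1678 of the 5405 members. Heat shock pairs, made of half-sites to which heat shock factors bind, stood at 11 of 34 chaperone genes and 305 of all members. SP1 boxes stood at 15 of 16 clock genes and 15 of 17 genes for acetylating, deacetylating and acetyl-lysine reading proteins. Sarcomere genes were the exception in base composition. Of 19 sarcomere members, 13 had an observed to expected CpG ratio under 0.6, the usual limit for a CpG island, as did 10 of 13 endothelial members and 9 of 18 genes of fatty acid use, against 18.6% of all members. The median sarcomere window held 6 CpG dinucleotides.

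A few sarcomere promoters show this composition, again as the 250 bases before the start on the plus strand. Tnnc1 (chr14:31208062-31208311) encodes cardiac troponin C, Myom1 (chr17:71019307-71019556) the M-band protein myomesin, and Myl3 (chr9:110763428-110763677) a ventricular myosin light chain. They held 0, 2 and 1 CpG dinucleotides, where the promoter of Eif1 held 24. The capitals are an M-CAT site in Tnnc1, an SRF site in Myom1, and M-CAT, CCAAT and SRF sites in Myl3. M-CAT sites stood at 7 of 19 sarcomere members and 604 of all members, and SRF sites at 3 of 19 and 69.
Tnnc1: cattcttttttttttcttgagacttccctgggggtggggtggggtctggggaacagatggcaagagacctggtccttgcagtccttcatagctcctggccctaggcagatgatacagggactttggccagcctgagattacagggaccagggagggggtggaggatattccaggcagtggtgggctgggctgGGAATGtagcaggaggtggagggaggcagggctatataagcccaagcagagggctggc
Myom1: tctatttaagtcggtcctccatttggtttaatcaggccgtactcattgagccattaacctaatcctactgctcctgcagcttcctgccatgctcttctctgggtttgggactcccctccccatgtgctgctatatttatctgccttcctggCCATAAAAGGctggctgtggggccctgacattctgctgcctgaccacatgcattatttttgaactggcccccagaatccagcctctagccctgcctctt
Myl3: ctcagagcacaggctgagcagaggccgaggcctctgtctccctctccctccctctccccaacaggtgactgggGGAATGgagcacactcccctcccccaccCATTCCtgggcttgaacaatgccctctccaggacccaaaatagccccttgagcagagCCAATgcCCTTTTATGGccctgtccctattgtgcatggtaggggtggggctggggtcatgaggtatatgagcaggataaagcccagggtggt

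The share of promoters found in every list went up with their height, a measure that the choice of members used. Of the narrow promoter peaks with heights of 15 to 17 reads in Des+/+ basal, 8.81% were in all 4 lists. That share was 39.9% at 21 to 25 reads, 86.8% at 31 to 40 reads, and 701 of 701 above 60 reads. Median height in Des+/+ basal was 35 reads in the members and 19 in the 4571 other narrow promoter peaks. Of those others, 1740 were present in both basal lists and in neither swim list, 1106 lacked only a Des-/- swim partner, 977 lacked only a Des+/+ swim partner, and 588 had no partner at all. The swim lists were shorter, with 11157 and 10407 peaks in Des+/+ and Des-/- against 15757 and 16638 in the basal state.

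**Figure D2:**
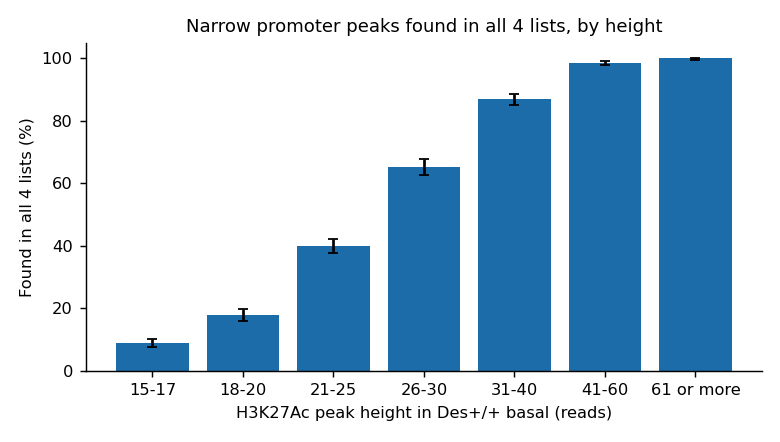
Share of narrow promoter peaks of Des+/+ basal (percent, bars with 95% Wilson intervals) found in all 4 H3K27Ac lists, by peak height in reads. The share goes from 8.81% at 15 to 17 reads to 100% above 60 reads.

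The values at the edges of the limits were as follows. The member farthest from a start was Id2 at 991 bp, with heights of 38, 33, 33 and 42 reads in Des+/+ basal, Des+/+ swim, Des-/- basal and Des-/- swim, and the nearest peak left out was Maml2 at 1003 bp, with 19, 15, 15 and 18 reads. For width, Etohd2 at 2498 bp was kept (83, 61, 95 and 72 reads) and Coro6 at 2501 bp was not (36, 35, 36 and 31 reads). For input, Urgcp at 9 reads was kept (65, 51, 70 and 51 reads) and Eif4enif1 at 11 reads was not (127, 98, 134 and 97 reads). The width limit left out 505 peaks that were in all 4 lists, and the input limit 4. Promoters too wide for the set included those of Atp2a2, the calcium pump of the sarcoplasmic reticulum, and of the immediate-early genes Egr1 and Fos.

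Beyond height, members differed from the other narrow promoter peaks in their starts. A protein-coding start on each strand lay inside 7.51% of members (6.84% to 8.24%) and inside 2.19% of the others (1.8% to 2.65%). By the same GENCODE vM21 starts, 35.9% of members and 59.8% of the others held no protein-coding start. Members were also wider in Des+/+ basal, with a median of 1157 bp against 679 bp. The parts of width and of holding no start in the share of paired starts were not tested. Fewer promoters of chromosome X were kept, 76 of 186 (40.9%, 34% to 48%), than of any autosome, where the share ran from 45.9% to 60.4%. The median height of the eligible peaks was 21 reads on chromosome X and 24 to 27 reads on the autosomes.

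The highest point of the peak lay a short way downstream of the start in every library. It was read in the 3722 one-to-one members, those with a single partner in each list and no partner shared with another Des+/+ basal peak. Its median position downstream of the start was 182 and 181 bp in the basal and swim libraries of Des+/+ and 179 and 187 bp in those of Des-/-. More than 50 bp downstream lay 74.6%, 74.4%, 74.7% and 74.9% of them, and within 50 bp of the start 2.63%, 2.77%, 2.69% and 2.82%. The start itself, usually free of nucleosomes at active genes, was thus seldom the summit, in any library. Median distance between the summit in Des+/+ basal and in another library was 48 bp for Des+/+ swim, 41.5 bp for Des-/- basal and 45 bp for Des-/- swim.

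**Figure D3:**
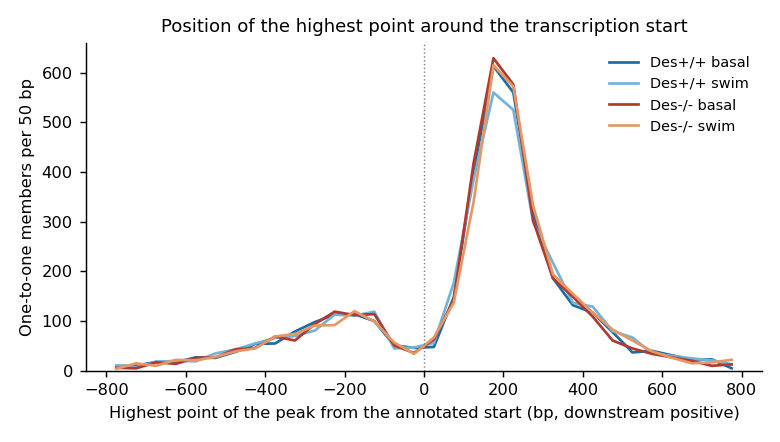
Number of one-to-one members per 50 bp (vertical axis) by the distance of the peak's highest point from the annotated start (bp, downstream positive), one line per library. All 4 lines have a main mode near their medians of 179 to 187 bp downstream, a low shoulder upstream and few summits at the start.

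Lamin A/C, mapped in the same cells with a second antibody, overlapped few of these promoters and few of the promoters left out for want of a partner. Lamin A/C peaks overlapped 0 members in Des+/+ basal, which allows a share of up to 0.0555% and where the list held 188 lamin A/C peaks. They overlapped 4 members in Des+/+ swim, 3 in Des-/- basal and 2 in Des-/- swim, of 635, 831 and 536 peaks. Of the 4571 other promoters that met the limits on distance, width and input, they overlapped 3 in Des+/+ basal, 4 in Des+/+ swim, 2 in Des-/- basal and 1 in Des-/- swim. The 9 promoters were Bpnt2, Ftl1, Rpl8 and Rps12 in Des+/+ swim, Abcg2, Atp5f1b and Dynlt1b in Des-/- basal, and 4930453N24Rik and Mtmr10 in Des-/- swim. Their lamin A/C heights ran from 8 to 12 reads, where 8 reads was the lowest height of those lists. No member overlapped lamin A/C in more than 1 library.

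The set was checked against cell type lists. Of 42 sarcomere genes 19 were members, and a further 18 had a narrow promoter peak that was missing in 1 or more lists, among them Actc1, Mybpc3, Myl2 and Ttn. Of 31 endothelial genes 13 were members and 11 had promoter peaks too wide to be kept, among them Cdh5, Flt1 and Pecam1. Fibroblast and matrix genes gave 0 members of 35, with a peak of any kind in Des+/+ basal at 4, and leukocyte genes 0 of 31, with a peak at Cd14 alone. Collagen genes (Col1a1, Col1a2, Col3a1) and the leukocyte gene Ptprc had no peak. Cardiomyocyte and endothelial promoters were thus both in the preparation. Since each library is a bulk sample, fewer cells of a type and less acetylation per cell cannot be told apart.

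Heights were divided by each library's median over the members, 35 reads in Des+/+ basal, 24 in Des+/+ swim, 40 in Des-/- basal and 29 in Des-/- swim, and the result is called the scaled height. The highest members by mean scaled height were Eif1, Atp6v0c and Nr1d2. Eif1, a factor that selects the start codon in translation, had heights of 167, 126, 169 and 128 reads in Des+/+ basal, Des+/+ swim, Des-/- basal and Des-/- swim, or 4.65 times the typical member. Atp6v0c, a subunit of the proton pump of lysosomes, had 185, 127, 163 and 107 reads. Nr1d2, a nuclear receptor of the circadian clock also known as Rev-erb beta, had 167, 98, 192 and 122 reads. All 4 libraries were high at these promoters. The others of the 10 highest were Rbm39, Gm16062, Klf7, Zfp335, Efcab2, Mir1893 and Slc35e2.

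Groups differed in how high they stood. Chaperone members, led by Hspa8 (139, 93, 128 and 92 reads in the order above), had a median of 1.4 times the typical member. The median was 1.38 for translation factors, where Eif4e2 and Eif5 followed Eif1, 1.36 for acetylation proteins, led by Kat6b, Hdac4, Crebbp and Kat5, and 1.31 for clock and for immediate-early genes. Oxidative phosphorylation genes, 57 of whose 79 genes were members, stood at 1.19, with Atp5mc3, Cox4i1, Cox8a and Atp5pb the highest. Ribosomal protein genes stood at 1.15 with 55 of 79. Sarcomere members stood at 0.858, mitochondrial ribosomal proteins at 0.817 with 24 of 79, and endothelial members at 0.683. Immediate-early genes were split, since 13 of 43, including Fos, Jun and Egr1, had promoter peaks wider than the limit.

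Ratios of scaled heights between libraries were small. Over all members, the log2 ratio of swim to basal had a median of 0.04 in Des+/+ and -0.01 in Des-/-, and the ratio of Des-/- to Des+/+ had a median of -0.04 in the basal state and -0.09 after swim. Since each library is scaled to the members, the medians are near 0 by construction and a change shared by all promoters could not be seen. The standard deviation over one-to-one members was 0.32, 0.32, 0.29 and 0.32 in the same order, and the counting error of 2 such heights alone would give 0.38, 0.36, 0.34 and 0.4. The spread over members was below this counting error in every comparison, which independent reads alone would not give. Members had to reach the lowest height of the lists in every library, and the part of this choice in the spread was not tested. The counting error is therefore too wide a yardstick to tell whether the ratios hold more than counting noise. A member at the median in both libraries had a counting interval of 0.569 to 1.73 for its swim ratio in Des+/+ and 0.562 to 1.79 for its genotype ratio after swim, so a 2-fold change was near the smallest that its counting interval could separate from no change.

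In Des+/+, the scaled height of 62 members was at least 2-fold higher in the swim library and that of 2 was 2-fold lower. The background, all 7377 Des+/+ basal peaks found in the 4 lists, gave 1.63% higher and 0.0271% lower, against 1.15% and 0.037% of members. In Des-/-, 19 members were higher and 24 lower, with a background of 0.474% and 0.42%. Between genotypes, 64 were higher and 10 lower in Des-/- in the basal state, with a background of 1.13% and 0.217%, and 12 were higher and 29 lower after swim, with 0.203% and 0.705%. This background contains the members. The other 1972 peaks of the background alone gave 2.94% higher and 0 lower for swim in Des+/+, 0.811% and 0.355% for swim in Des-/-, 0.963% and 0.304% between genotypes without exercise, and 0.152% and 1.17% between genotypes after swim. The lowest height of 15 reads was 0.429 of the member median in Des+/+ basal, 0.625 in Des+/+ swim, 0.375 in Des-/- basal and 0.517 in Des-/- swim, so a member could fall less far in Des+/+ swim than elsewhere before it left the set. Among one-to-one members the median log2 ratio of swim to basal in Des+/+ was 0.13 in the third of lowest mean height and -0.03 in the third of highest, and the part of the lowest height in the counts was not tested. The split after swim depended on the scaling. Divided by the median over all 7377 peaks in the 4 lists, which moved every ratio of Des-/- to Des+/+ after swim by 0.10 on the log2 scale, 22 were higher and 14 lower.

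Many of these calls lay where a region was cut into peaks differently in the libraries. Of the 62 members that were higher after swim in Des+/+, 56 were not one-to-one, and so were 62 of the 64 that were higher in Des-/- in the basal state. Klhl24, the member with the largest ratio, is an example. Its Des+/+ basal list held a small peak of 17 reads beside one of 109 reads, and both were paired with the same peaks of 68, 106 and 53 reads in the other libraries. The small peak gave a swim ratio of 2.54 on the log2 scale and the large one -0.14. Other members that led the ratios, among them Lrrc8a, Chtop and Herpud1 (swim in Des+/+), Myl12a, Dnajb5, Rps13, Pcif1, Gdi2 and Crlf2 (swim in Des-/-), Nav1 (genotype in the basal state) and Lsm4, Rbm39, Bag3, Bcl2l1, Utp18 and Ptpn11 (genotype after swim), were likewise not one-to-one.

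Among the 3722 one-to-one members, 6 were higher and 2 lower after swim in Des+/+, 11 higher and 4 lower after swim in Des-/-, 2 higher and 7 lower in Des-/- basal, and 1 higher and 9 lower in Des-/- swim. In that order these were 0.161% and 0.0537%, 0.296% and 0.107%, 0.0537% and 0.188%, and 0.0269% and 0.242%. The background above, which was not limited to one-to-one peaks, gave 1.63% and 0.0271%, 0.474% and 0.42%, 1.13% and 0.217%, and 0.203% and 0.705%. Of the genes in this paragraph, Cat, Zbtb16, Rhot2, Suz12, Sh3bp4, Sox17 and Podxl were chosen after their values were seen. Swim in Des+/+ was higher at Cat, which encodes the peroxide-removing enzyme catalase (20 reads basal, 29 swim), at the transcription factor gene Zbtb16 (21 and 30 reads), and at Rhot2, Spata13, Suz12 and Sh3bp4. It was lower at Fam32a (56 and 15 reads, 0.391 times the basal scaled height, interval 0.205 to 0.7) and at one of 2 members of Myl6 (48 and 15 reads). Swim in Des-/- was higher at the endothelial genes Sox17 (18 and 31 reads) and Podxl (15 and 22 reads), and at Eml1 (25 and 38 reads) and 4930481A15Rik (37 and 55 reads). In Des-/- basal, 9430078K24Rik, Cdc42bpa (55 reads in Des+/+ and 31 in Des-/-) and Hmgb2 (56 and 32 reads) were lower.

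The widest gap among one-to-one members, named after its values were seen, was at Cwc22, a splicing factor gene (chr2:77945550-77946521). Its heights were 49 reads in the basal and 36 in the swim library of Des+/+, and 171 and 49 in those of Des-/-. The Des-/- basal library alone was high, 3.05 times Des+/+ basal on the scaled values (interval 2.21 to 4.29). Input at this peak was 2, 7, 3 and 10 reads in the same order of libraries, and the part of input in this gap was not tested.

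Members that moved at least 1.5-fold the same way after swim in both genotypes numbered 37 higher and 4 lower, of which 19 and 2 were one-to-one. The background gave 1.02% and 0.0949%, against 0.685% and 0.074% of members, and 0.38% moved past 1.5-fold in opposite ways, as did 23 members. The 2 swim comparisons share no library, and over the 3722 one-to-one members, which share the partner rule and the scaling, their log2 ratios had a Pearson correlation of 0.149, which is weak. Per2 (chr1:91458051-91459436), a repressor of the circadian clock, had the most reads of the one-to-one members named here, with 53 reads in Des+/+ basal and 62 in Des+/+ swim, and 75 in Des-/- basal and 92 in Des-/- swim. Its scaled height after swim was 1.71 times basal in Des+/+ (interval 1.16 to 2.51) and 1.69 times in Des-/- (1.23 to 2.33). Both swim libraries had more reads than their basal library at Per2, although the typical member had fewer. Of the one-to-one members, Spata13, Map4k2, Arhgef37, Sptbn1 and Lrrc10 had the largest mean ratios, from 15 to 34 reads. The lower ones were Rab35, a small GTPase of membrane traffic (44 and 20 reads in Des+/+, 61 and 26 in Des-/-), and Cic, a transcriptional repressor (63 and 28, 69 and 31). Of the members that were not one-to-one, Hycc2, Arid5b, Bmpr2, Emp1 and Ppp1r18 led upward and Mpc2 and Cops8 downward.

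The clock genes as a group had values near 0. The 16 clock members had a median log2 swim ratio of -0.03 in Des+/+ and 0 in Des-/-. Cry1, another repressor of the clock and named after its values were seen, had 35 and 22 reads in basal and swim of Des+/+ and 34 and 45 in Des-/-, and Nr1d2, described above, had -0.22 and -0.19 on the log2 scale.

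Between genotypes, 17 members were at least 1.5-fold lower in Des-/- in both states and 19 were higher, of which 13 and 1 were one-to-one. The background gave 0.583% lower and 0.339% higher, against 0.315% and 0.352% of members, and 0.556% moved in opposite ways, as did 28 members. The 2 genotype comparisons share no library, and the Pearson correlation of their log2 ratios over one-to-one members was 0.0747, which is weak. Ndufs7, a subunit of complex I of the respiratory chain, had 54 reads in Des+/+ and 35 in Des-/- without exercise, and 34 and 22 after swim. The scaled ratios were 0.567 (0.36 to 0.884) and 0.535 (0.298 to 0.943). Dsp, which encodes desmoplakin, the protein that anchors desmin filaments to desmosomes, had 34 and 22 reads without exercise and 26 and 18 after swim, with ratios of 0.566 (0.315 to 0.997) and 0.573 (0.296 to 1.09). Smpdl3a (47 and 31, 33 and 20 reads), Cystm1 (39 and 24, 30 and 18 reads), Cdk5rap1, Nt5c2 and, not one-to-one, Nav1 were the others that led this group. The 1.5-fold limit in both states fixed the direction of all these members in advance. Lmo4, a transcriptional cofactor, was the single one-to-one member that was higher, with 28 and 54 reads without exercise and 16 and 31 after swim. The higher members that were not one-to-one were led by Bcl2l1, Arrdc3, Csnk1e, Ptpn11 and Utp18. Bcl2l1 had 20 and 19 reads in Des+/+ against 75 and 84 in Des-/-, and the highest peaks of its joined region had 80 and 64 reads in Des+/+.

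The promoters of Ndufs7 (chr10:80249199-80249448) and Dsp (chr13:38151044-38151293) are printed because they were lower in Des-/- in both states. Both run along the plus strand and end at the base before the start. The capitals are an M-CAT site, a TATA box and an ETS site in Ndufs7 and 4 SP1 boxes in Dsp.
Ndufs7: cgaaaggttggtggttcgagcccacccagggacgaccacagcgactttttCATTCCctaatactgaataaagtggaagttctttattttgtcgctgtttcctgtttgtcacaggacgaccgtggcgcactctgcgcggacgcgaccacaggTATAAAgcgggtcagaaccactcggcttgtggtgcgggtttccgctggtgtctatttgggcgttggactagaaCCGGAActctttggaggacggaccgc
Dsp: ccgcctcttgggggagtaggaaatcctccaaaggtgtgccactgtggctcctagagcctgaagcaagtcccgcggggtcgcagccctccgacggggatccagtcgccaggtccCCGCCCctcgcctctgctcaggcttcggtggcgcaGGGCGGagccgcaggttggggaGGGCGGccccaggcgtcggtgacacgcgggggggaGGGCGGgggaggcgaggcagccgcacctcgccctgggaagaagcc

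Most sarcomere members were lower in Des-/- swim than in Des+/+ swim. Of the 19 sarcomere members, 18 had a lower scaled height in Des-/- swim than in Des+/+ swim, where 60.6% of all members did, and 17 lay below the median of all members. The median log2 ratio was -0.71, or 0.612 times, against -0.09 for all members, and -0.61 with the other scaling. Other lists were also mostly lower in Des-/- swim. These were 9 of 9 cardiac transcription factor, 16 of 18 fatty acid, 46 of 57 oxidative phosphorylation and 26 of 32 glucose members. Clock members were lower at 8 of 16. Tnnc1 had 30 reads in Des+/+ basal, 37 in Des+/+ swim, 28 in Des-/- basal and 17 in Des-/- swim. Myom1 had 40, 33, 38 and 19 reads in the same order. Myoz2, which encodes a calcineurin-binding protein of the Z-disc, had 41, 39, 37 and 25 reads. On scaled values Des-/- swim was the lowest and Des+/+ swim the highest of the 4 libraries at each of these, which were chosen after their values were seen.

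The pattern was shared by most of the list. Des+/+ swim gave the highest of the 4 scaled heights at 14 of 19 sarcomere members and at 34.6% of all members, but also at 14 of 18 fatty acid, 13 of 23 proteasome and 32 of 57 oxidative phosphorylation members. Des-/- swim gave the lowest at 10 of 19 and at 30.7% of all. The median log2 ratio of swim to basal was 0.38 in Des+/+ and -0.15 in Des-/-, with 15 of 19 above 0 in the first and 12 of 19 below 0 in the second. Of all members, 45% were below 0 in the first and 50.8% in the second. The second median was 0.013 with input subtracted, and the first was 0.25 with the highest peak of each joined region. In the basal state the median ratio of Des-/- to Des+/+ was -0.29, with 13 of 19 below 0, where 55.2% of all members were. Thick filament and M-band genes (Myl3, Myom1), thin filament genes (Tnnc1, Tpm1, Tmod1, Tnni3, Tnnt2) and Z-disc genes (Csrp3, Flnc, Ldb3, Myoz2, Nexn) all had negative values after swim. The 8 one-to-one members alone gave -0.78. Past 2-fold lower were Tnnc1 and Myom1, neither one-to-one.

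**Figure D4:**
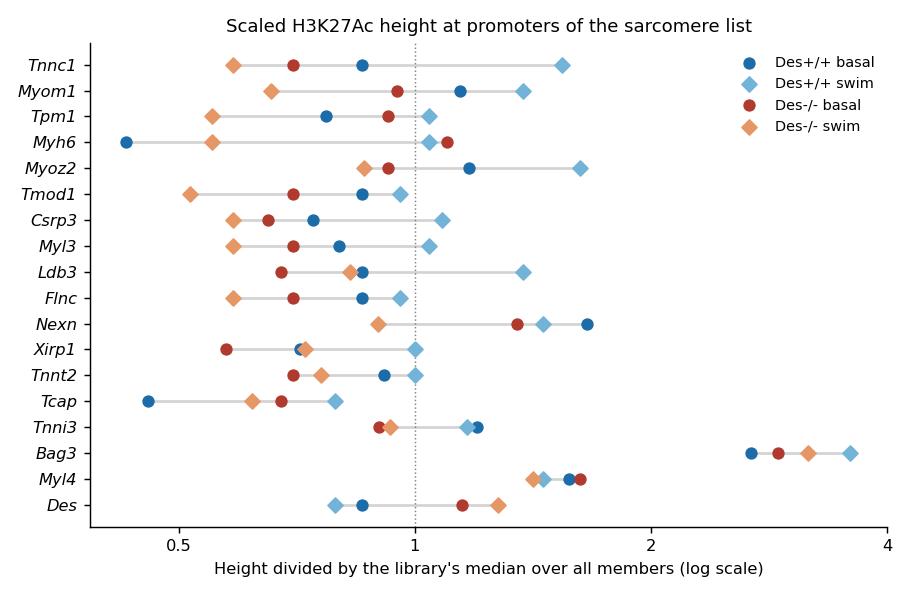
Scaled H3K27Ac height (height divided by the library's median over all members, log axis) of 18 sarcomere members, one marker per library, ordered by the ratio of Des-/- swim to Des+/+ swim. Light blue diamonds (Des+/+ swim) lie to the right of orange diamonds (Des-/- swim) in every gene shown but Des.

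Single members departed from the list. Des, the deleted gene itself, was the one with a positive value, with 30, 19, 46 and 37 reads at its higher member and 29, 24, 29 and 31 at the other. It carries promoter acetylation in both Des-/- libraries, so acetylation does not check the genotype labels. Myh6, which encodes the cardiac myosin heavy chain, was represented by a small peak of 15 reads in Des+/+ basal, with 25, 44 and 16 reads in its partners. The highest peaks of the joined region had 46, 37, 44 and 26 reads.

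Genes of oxidative metabolism had negative medians of smaller size. The 18 members of the fatty acid list had a median log2 ratio of Des-/- to Des+/+ of -0.37 after swim and -0.19 in the basal state, with 13 and 11 of 18 below the median of all members. Their median of swim to basal in Des+/+ was 0.32, with 15 of 18 above 0, where 45% of all members were below 0. Pdk4, the kinase that turns off pyruvate dehydrogenase, was chosen after its values were seen and had 29 and 26 reads in Des+/+ and Des-/- basal and 33 and 20 after swim. Acadl, a long-chain acyl-CoA dehydrogenase, had 54 and 53 reads without exercise and 45 and 34 after swim. Hadhb, of the mitochondrial trifunctional protein, had 67 and 93, then 59 and 54. Of the 57 oxidative phosphorylation members, 38 were below the median of all members after swim, with a list median of -0.27, and 34 in the basal state, with -0.13. For 32 genes of glucose use and the citrate cycle the medians were -0.24 and -0.18, with Idh2 and Got1, named for this, past 2-fold lower after swim. Ribosomal protein genes had a median of -0.06 after swim, which turns positive with the other scaling and in one-to-one members (0.012), and clock genes 0.02.

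**Figure D5:**
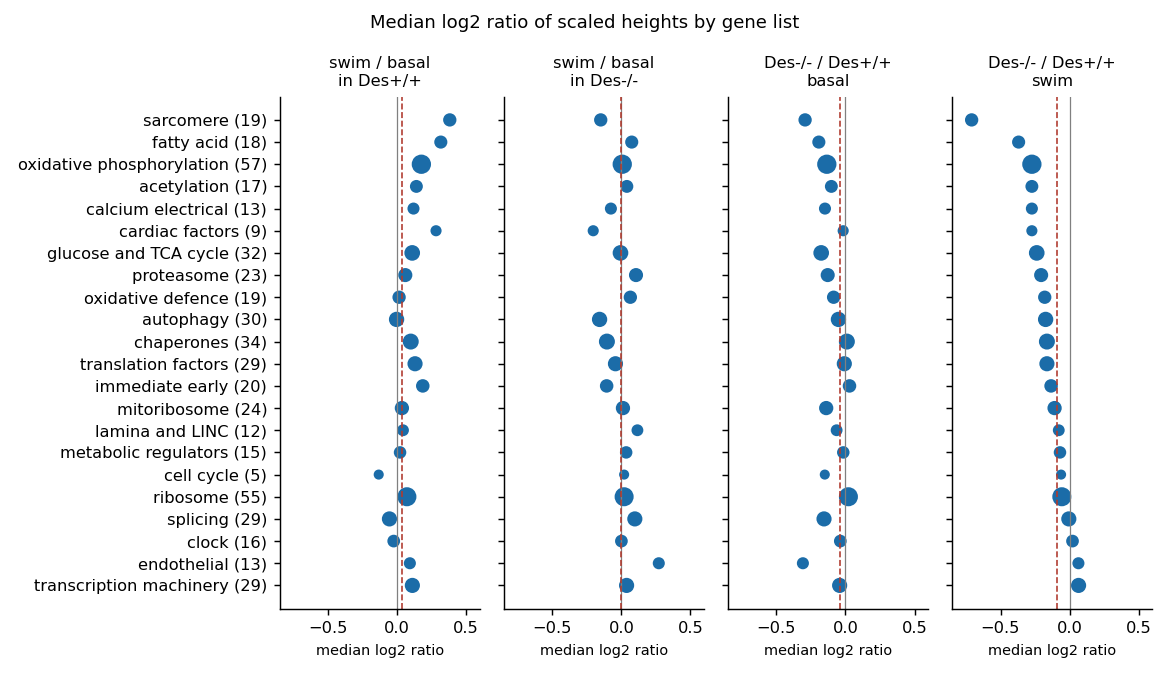
Median log2 ratio of scaled heights (horizontal axes) for each gene list with 5 or more members, in the 4 comparisons, with the number of members in brackets and larger points for longer lists. Dashed lines are the medians of all 5405 members and grey lines mark 0. The sarcomere list is the farthest left after swim (-0.71), followed by fatty acid genes (-0.37).

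Markers of another cell type and the input moved beside these results. Among the 13 endothelial members, the median log2 ratio of swim to basal in Des-/- was 0.27 with 11 of 13 above 0. Of all members, 50.8% were below 0 in that comparison. The endothelial median of Des-/- to Des+/+ was -0.31 in the basal state and 0.06 after swim, or -0.06 after swim in the 8 one-to-one members. The sarcomere median of swim to basal in Des-/- was -0.15, or 0.013 with input subtracted. A different share of cell types in that library was not tested. Median input over all members was 3 reads in 3 libraries and 7 in Des-/- swim, and over the sarcomere members it was 2, 3, 2 and 4. With input subtracted the sarcomere median after swim was -0.67. Members with a CpG ratio under 0.6 but outside the sarcomere list, 991 regions, had a median of -0.15 after swim, against -0.07 for the 4401 members with a ratio of 0.6 or more.

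For the remaining lists, any median between -0.10 and 0 after swim turns positive with the other scaling. Ryr2, Jph2, Hspb7 and Atf3 were chosen after their values were seen. For calcium handling and electrical coupling (13 of 40 genes) the median was -0.27 after swim, or -0.13 in one-to-one members. Ryr2, the calcium release channel, had 32 reads after swim in Des+/+ and 23 in Des-/-, and Jph2 had 30 and 21. For cardiac transcription factors 7 of 9 members were below the median of all members after swim, with a list median of -0.27 that was -0.10 in one-to-one members, among them Mef2a (63 and 56 reads), Srf (40 and 45 reads) and Tead1 (40 and 27 reads). Chaperones (34 of 54) had -0.16, or -0.05 in one-to-one members, with Hspb7, a small heat shock protein of striated muscle, past 2-fold lower at 30 and 15 reads. Immediate-early genes (20 of 43) had 0.19 after swim in Des+/+ and -0.11 in Des-/-, and Atf3 had 36 and 38 reads in Des+/+ and 63 and 28 in Des-/-. Acetylation proteins had -0.27 after swim, proteasome subunits (23 of 32) -0.21, autophagy genes (30 of 45) -0.17, translation factors (29 of 44) -0.16, oxidative defence genes (19 of 32) -0.18, mitochondrial ribosomal proteins -0.11, lamina and nuclear envelope genes (12 of 33) -0.08, metabolic regulators (15 of 30) -0.07, the cell cycle list (5 of 38) -0.06, splicing factors (29 of 47) -0.01, or 0.11 in one-to-one members, and transcription machinery (29 of 73) 0.07. Lmna, which encodes lamin A/C, had 44 and 41 reads in basal and swim of Des+/+ and 53 and 61 in Des-/-.

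The highest members of the lists not yet named were Rpl21, Rpl19, Rps14 and Rpl35a of the cytosolic ribosome, Mrpl46, Mrpl33, Mrpl58 and Mrpl17 of the mitochondrial ribosome, Psmd11, Psmc3, Psma3 and Adrm1 of the proteasome, and Srsf6, Sf3b1, Eftud2 and Sf3a2 of splicing. Calm2 and Calm3, genes of the calcium sensor calmodulin, led the calcium list, Vdac2 and Aldoa the glucose list, Klf6, Fosb and Klf4 the immediate-early list, Atg101 and Map1lc3b the autophagy list, Gpx4 and Srxn1 the oxidative defence list, Itgb1 and Lmna the nuclear envelope list, and Eng, Esam and Fabp4 the endothelial list.

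Of the 17 genes that the study follows, 9 were members. Besides Des, Dsp and Myh6 these were Fkbp1a, Akt1, Mib1, Notch1, Gja1 and Kdr. Akt1, a kinase of growth signalling, had 53 and 25 reads in Des+/+ basal and swim and 53 and 41 in Des-/-. Notch1, a receptor of cell fate signalling, had 36 and 18, then 29 and 26, and Gja1, the connexin of the intercalated disc, 32 and 18, then 30 and 23. At Akt1, Notch1 and Gja1 the scaled swim values were below basal in Des+/+ and above it in Des-/-. The log2 ratios were -0.54 and 0.09 at Akt1 and -0.46 and 0.31 at Notch1. Ratios of this size lie inside the counting interval of a member at the median. That interval was 0.569 to 1.73 for swim in Des+/+ and 0.598 to 1.65 in Des-/-. Actn2, Erbb4, Notch2, Pdgfra and Yap1 had promoter peaks that were missing in 1 or more lists, Vdac1 had a peak that was too wide, Notch3 had only peaks away from its start, and Gfra2 had no peak in Des+/+ basal.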

How the data were processed

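Chromatin immunoprecipitation sequencing was performed by the authors on 16 samples, 8 of them inputs, and the 4 H3K27Ac and 4 lamin A/C peak lists were used here. Per the labels, reads were aligned to GRCm38/mm10. The submitters' processing notes name Bowtie2 2.4.4, SAMtools 1.13 and ChIPseeker 1.36.0. Peaks were called by the authors in each library against its own input with their own script. The deposited peak height and input height are coverage signals in overlapping reads. The distance to the start is the authors' deposited score, in bp. The peak columns of p-value and fold were not used, as they hold the authors' own comparison of each peak with its input. The lists hold no read total per library, and removal of duplicates and scaling of the input are not given in the sources used here.

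Partners were peaks overlapping by 1 bp, and the highest partner gave the height. Heights were divided by the library's median over the members. For a gene with several members, the highest stood for it in the lists. Ratios had exact binomial and shares Wilson intervals (95%, SciPy 1.17.1), and the limit for a count of 0 was 3 counts. Scripts were tested on simulated data. List names were matched to genes by symbol or older symbol in the RefSeq gene table, and all of them matched. Members, comparisons and gene lists were chosen with earlier results of these data known. Named genes were the 10 members with the highest mean scaled height; in each comparison the 4 highest and 4 lowest past 2-fold with at least 60 reads over both heights; the 5 with the largest mean ratio in each direction past 1.5-fold the same way in both swim or both genotype comparisons, repeated for one-to-one members after seeing the data; up to 4 of the highest members of each list; and the genes the study follows. Other genes are said to be chosen after their values were seen. The alternatives were another partner rule, another overlap, scaling, subtraction of the input, narrower partners, unambiguous partners, a minimum height of 30, a 1.5-fold limit and, for membership, a distance of 3000 bp and no limits on width and input. Versions were Python 3.11.15, NumPy 2.4.6, pandas 2.3.3 and Matplotlib 3.10.9. The values of 1 sarcomere member are not reported here, though it is counted in its list.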

Additional observations from a re-analysis of the deposited data

Results flagged for a closer look

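Of the members chosen by the naming rules, 3 had swim to basal ratios past 1.5-fold in opposite directions in the 2 genotypes, as did 23 of all 5405 members, and the difference was not tested, since each group was 1 library. Cdc42bpa, a kinase that acts on actin and myosin, had a log2 ratio of -0.59 in Des+/+ and 0.60 in Des-/-. As scaled ratios these were 0.663 (interval 0.396 to 1.08) and 1.51 (0.902 to 2.55), and both intervals include 1. On the log2 scale, Rps13 had 2.07 and -1.70, and Bag3, a co-chaperone of the Z-disc, had 2.02 and -1.35. The members of Rps13 and Bag3 were not one-to-one. The highest peaks of the joined regions had 58, 49, 67 and 51 reads at Rps13 and 94, 86, 116 and 92 at Bag3 in Des+/+ basal, Des+/+ swim, Des-/- basal and Des-/- swim. The sarcomere list had a median of 0.38 in Des+/+ and -0.15 in Des-/-.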

How the results depend on the processing

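No paired analysis was possible because each group was 1 library, and for the same reason no replicate could be left out. The heights carry no read totals, input was higher in Des-/- swim, and a member at the median height could show only changes of about 2-fold. The alternatives of one-to-one members and of the highest peak of the merged region were chosen after seeing the data. The cause of a change was not tested, except that some alternatives keep fewer members.

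The number of members stayed within 1.5 times of 5405 under each alternative, at 5598 with a distance of 3000 bp, 5915 with no limits on width and input, 5347 with 50% overlap and 4389 with narrow partners of low input. Counts past the fold limit are given as higher and lower. At 1.5-fold they were 360 and 113 for swim in Des+/+, 236 and 171 for swim in Des-/-, 216 and 191 for genotype in the basal state and 126 and 355 for genotype after swim. With input subtracted they were 98 and 11 for swim in Des+/+, 58 and 53 for swim in Des-/-, 84 and 17 for genotype without exercise, and 40 and 63 after swim. With the highest peak of the merged region they were 11 and 1 for swim in Des+/+, 14 and 5 for swim in Des-/-, 3 and 5 for genotype without exercise, and 1 and 14 after swim. One-to-one members gave 6 and 2 for swim in Des+/+, 11 and 4 for swim in Des-/-, 2 and 7 for genotype without exercise, and 1 and 9 after swim. With 1 partner shared by no other member there were 11 and 2 for swim in Des+/+, 13 and 5 for swim in Des-/-, 4 and 7 for genotype without exercise, and 2 and 14 after swim. Narrow partners of low input gave 37 and 2 for swim in Des+/+, 24 and 36 for swim in Des-/-, 34 and 14 for genotype without exercise, and 6 and 42 after swim. The partner of longest overlap gave 56 and 10 for swim in Des+/+, 32 and 25 for swim in Des-/-, 60 and 15 for genotype without exercise, and 20 and 31 after swim. In the same order of comparisons, a height of 30 left 41 and 2, 7 and 24, 64 and 7, and 12 and 20. An overlap of 50% gave 45 and 4, 22 and 23, 49 and 11, and 13 and 28. Scaling by all peaks in the 4 lists gave 56 and 3, 23 and 20, 70 and 7, and 22 and 14.

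Of the 92 list medians, 11 moved by more than the standard error of a median with one-to-one members, 16 with input subtracted and 9 with the other scaling. The sarcomere median of swim to basal in Des+/+ was 0.16 with a height of 30 and 0.25 with the merged region, and in Des-/- it was 0.013 with input subtracted. Its median of Des-/- to Des+/+ after swim was -0.86 with 1 partner shared by no other member and lay between that and -0.61 under the other alternatives. With the merged region, log2 ratios changed sign for swim in Des+/+ at Klhl24 (-0.15), for swim in Des-/- at Myl12a (0.14), Dnajb5 (0.11), Rps13 (0.070) and Crlf2 (-0.52), for genotype in the basal state at Klhl24 (-0.19), Pcif1 (-0.00516), Bcl2l1 (-0.25), Arrdc3 (-0.14), Csnk1e (-0.13) and Utp18 (-0.17), and after swim at Rbm39 (0.018), Utp18 (-0.37) and Arrdc3 (-0.37).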
